A study of Mus musculus with 4 samples.

Results

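The Hox genes of sorted newborn mouse duct cells are described here: every probe whose accession led to a mouse symbol of Hoxa, Hoxb, Hoxc or Hoxd followed by a number from 1 to 13, with antisense and host transcripts left out. These were 44 of 41174 probes, covering 37 of the 39 Hox genes in the RefSeq table. No probe matched Hoxc11 or Hoxd8. The choice used names alone and no measured value.

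The study asked what changes in the collecting duct when the (pro)renin receptor, encoded by Atp6ap2, is deleted there. Green fluorescent collecting duct and ureteric bud cells were sorted on postnatal day 1 from HoxB7CreEGFP+; PRR flox/flox mice (knockout) and from CreEGFP+ PRR+/+ mice (wild type), so that both genotypes carried Cre and the fluorescent protein. The HoxB7 promoter that drives them is named for a member of the family described here, and the labels do not say whether the transgene carries Hoxb7 transcript sequence. RNA of pooled cells, 0.5 µg per reaction, was labelled and hybridised to 4 two-colour Agilent arrays. Cy5 marked the knockout on 2 arrays (knockout arrays 1 and 2), opposite pool 1 or pool 2 of the wild type in Cy3. The 2 self arrays held pool 1 or pool 2 in both dyes. The sample titles conflict with the source named for each channel, and the sources were followed. Were the titles right instead, each knockout direction given here would be reversed.

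Hox genes encode homeodomain transcription factors and lie in 4 clusters, A to D, on mouse chromosomes 6, 11, 15 and 2. Members with the same number, called a paralogue group, descend from one ancestral gene, and low numbers lie at the end of a cluster that is active toward the head while high numbers act toward the tail. In the kidney, Hoxb7 is a classical marker of the ureteric bud, the group 11 genes are required together for kidney formation and act in the mesenchyme, and the group 10 genes act in the stroma.

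Cy3 of knockout array 1, labelled as pool 1, held almost no signal (28 probes well above background), which leaves 7 usable channels. In these, 14935 to 22713 of 41174 probes were well above background, a flag that the scanner software sets for each spot. Atp6ap2 had Cy5 levels of 8.08 and 7.72 on the knockout arrays and 8.38 and 8.51 in pools 1 and 2 (log2 normalised intensity), which puts knockout at -0.55 ± 0.16 relative to wild type (SE over 2 arrays in each group; limma adjusted p = 0.797). Genes of the sorted duct lineage were present in every sample, with 7 of 7 principal cell markers and 9 of 9 ureteric markers well above background in Cy5 on all 4 arrays. Pool 2 stood apart in proximal tubule genes. Slc34a1, a phosphate transporter of that segment, had Cy5 levels of 8.41 and 7.75 on the knockout arrays, 9.11 in pool 1 and 12.29 in pool 2, and Slc5a2, a glucose transporter, 6.92 and 6.78 against 7.02 and 8.20. Summed linear Cy5 levels of the principal cell markers ran the other way, at 13110 in pool 2, 16710 in pool 1 and 20800 to 23410 on the knockout arrays. In RNA from bulk cells, fewer cells of a type and less RNA per cell cannot be told apart.

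The Hoxb cluster was detected almost end to end. Hoxb2, Hoxb3, Hoxb4, Hoxb5, Hoxb6, Hoxb7 and Hoxb9 were well above background in all 7 channels and Hoxb8 in 6 of 7, while the gene at the head end, Hoxb1, was so in none and the outlying Hoxb13 in 2. The other clusters were detected in part. In Hoxa, Hoxa7, Hoxa9, Hoxa10 and Hoxa11 were seen in all 7 channels, whereas Hoxa3 and Hoxa5 were seen in none and Hoxa4 in 1. In Hoxc, Hoxc9 and Hoxc10 were seen in all 7 channels and Hoxc6 in 5. In Hoxd, Hoxd4, Hoxd9 and Hoxd10 were seen in all 7.

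By paralogue group, detection was most complete in groups 9 and 10, where all 4 and all 3 genes were well above background in all 7 channels, and in group 7, where both genes were. Of the 6 genes of groups 12 and 13, which pattern the tail end, limbs and genital tract, 0 were seen in all 7 channels. Hoxc12, Hoxc13, Hoxd12 and Hoxd13 were seen in 0 channels, Hoxb13 in 2 and Hoxa13 in 5. In group 11, Hoxa11 was seen in all 7 channels and Hoxd11 in none. In group 1, Hoxd1 was seen in 1 channel and Hoxb1 in none.

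**Figure D1:**
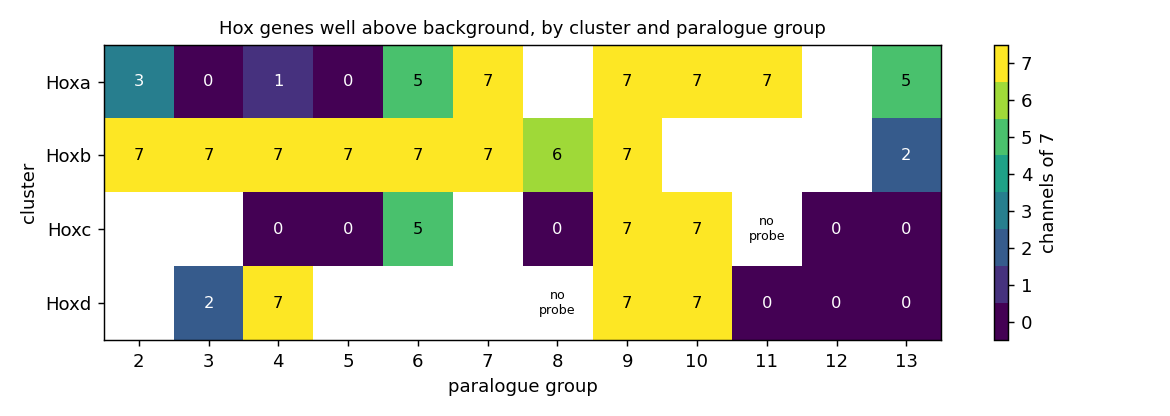
Number of the 7 channels with signal in which each Hox gene had a probe well above background, by cluster (rows) and paralogue group from 2 to 13 (columns); blank cells have no gene, and Hoxc11 and Hoxd8 had no matched probe. Groups 9 and 10 read 7 throughout, Hoxb2 to Hoxb9 read 6 or 7, and groups 12 and 13 read 0 except Hoxa13 (5) and Hoxb13 (2).

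In all, 16 of 37 Hox genes were well above background in all 7 channels, where 50.7% of all genes with a symbol were, and 12 were so in none, where 26.9% of all genes were. Those in none included Hoxa3, Hoxa5, Hoxb1, Hoxc4, Hoxc5, Hoxc8, Hoxc12, Hoxc13, Hoxd11, Hoxd12 and Hoxd13, with background-subtracted signals from -4.75 to 20.4 scanner units over the 7 channels. A probe in that range has only an upper bound, so these genes were not detectable with these probes, which is not a measure of absence. Both knockout arrays detected 21 Hox genes in Cy5 (63.4% of all genes with a symbol) and both pools 18 (59.3% of all genes). All 18 were among the 21, which are thus also the Hox genes detected in either genotype (64.3% of all genes).

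The 3 genes detected on both knockout arrays but not in both pools were Hoxa2, Hoxa6 and Hoxa13. Hoxa2, which patterns the hindbrain and face, was well above background in Cy5 in neither pool. Of the wild-type channels, it was so only in Cy3 of pool 2 on knockout array 2. Its mean Cy5 level was 1.16-fold higher in knockout (limma adjusted p = 0.797), with both pool values dim. That direction turned, to -0.20 on the log2 scale, with 75th percentile scaling, and the ratio to pool 2 on knockout array 2 was -0.02. Its Cy5 levels were 6.58 and 6.73 on the knockout arrays against 6.50 and 6.38 in the pools. Hoxa6 and Hoxa13 were well above background in pool 2 and not in pool 1, and differed by 0.05 and 0.04 on the log2 scale. Array brightness also differed: the median background-subtracted Cy5 signal was 34.1 scanner units on knockout array 1, 11.8 on the pool 1 self array and 8.81 on the pool 2 self array. Knockout array 2 lay between knockout array 1 and the pool 1 self array, so both knockout arrays were brighter than both pools. In Cy5, 23 Hox genes were well above background on each knockout array, 18 in pool 1 and 20 in the dimmer pool 2. Genotype and brightness thus ran together, and the part of brightness in the difference in detection was not tested.

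The comparison of genotypes used Cy5 of all 4 arrays, with the 21 genes detected on both arrays of at least 1 genotype. None of them passed the test. Among the 16594 genes that limma tested, 0 rose and 0 fell at the 0.05 threshold on the adjusted p (0% each way), and the smallest adjusted p was 0.713. At an unadjusted p under 0.05, 719 genes were counted, 3.09% higher and 1.25% lower, and 1 Hox gene, Hoxa10, was among them. The median difference over the 21 Hox genes was 0.04 on the log2 scale and that over all genes 0.02. Both knockout arrays lay above both pools in 4 Hox genes (21.8% of all genes) and below both in 6 (17.7% of all genes). These counts were 7 and 6 with processed Cy5 signals and 7 and 8 with 75th percentile scaling. The shares over all genes were not counted in those settings, so these counts have no background beside them. The filter admits genes detected in 1 genotype alone, so these counts describe the genes that entered and not the whole family.

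The 4 genes with both knockout arrays above both pools were Hoxa2, Hoxb3, Hoxb5 and Hoxb9. Hoxa2 passed the filter through the knockout arrays alone, so its place in this count was favoured by the filter. Hoxb3, a gene of neck and hindbrain patterning, read 7.62 and 7.40 on the knockout arrays, 7.30 in pool 1 and 6.81 in pool 2, which gives 0.46 ± 0.20 for knockout minus wild type (SE; limma adjusted p = 0.797). Hoxb5, which acts in gut and lung development among other sites, read 9.96 and 10.06 on the knockout arrays, 9.95 in pool 1 and 8.76 in pool 2. Its knockout values thus stood just above pool 1 and far above pool 2, and its difference was 0.65 ± 0.40 (limma adjusted p = 0.797). Hoxb9, which acts in rib development among other sites, read 11.60 and 11.65 on the knockout arrays, 11.53 in pool 1 and 11.08 in pool 2 (0.32 ± 0.18, limma adjusted p = 0.797).

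The 6 genes with both knockout arrays below both pools were Hoxa7, Hoxa9, Hoxa10, Hoxa11, Hoxc9 and Hoxd10. All of them belong to groups 7 to 11, a range read off these same genes that holds 11 of the 21 tested genes. The Hoxa cluster, which holds 7 tested genes, had 4 of them. Within that range Hoxb9, of group 9, lay above both pools, and Hoxb7, Hoxb8, Hoxc10 and Hoxd9 overlapped. Hoxa10, a stromal and uterine regulator, had the smallest p of the family: it read 6.68 and 6.72 on the knockout arrays, 7.01 in pool 1 and 7.20 in pool 2, or -0.41 ± 0.12 for knockout minus wild type (SE; limma adjusted p = 0.797, unadjusted 0.0228). The knockout arrays were 0.04 apart and both lay below both pools.

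Hoxa9, best known from blood progenitors, read 7.74 and 7.49 on the knockout arrays, 7.89 in pool 1 and 8.75 in pool 2 (-0.70 ± 0.31, limma adjusted p = 0.797). Hoxa7, its neighbour in the cluster, read 7.44 and 7.37 against 7.56 and 8.26 (-0.51 ± 0.25, limma adjusted p = 0.797). In both genes pool 1 lay close to the knockout arrays and pool 2 was the high sample. Hoxc9 read 7.42 and 7.12 on the knockout arrays against 7.51 and 7.76 in the pools (-0.36 ± 0.17, limma adjusted p = 0.797). Hoxa11, one of the group 11 genes needed for the kidney, differed by -0.16 ± 0.13 and Hoxd10, which patterns hindlimb and lumbar spinal cord, by -0.21 ± 0.14 (limma adjusted p = 0.799 and 0.797). The gap between knockout arrays was 0.21 in Hoxa11 and 0.28 in Hoxd10, each larger than the mean difference.

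In the remaining 11 genes the arrays of the genotypes overlapped. Hoxb7, the gene whose promoter marks the sorted cells, read 11.36 and 11.50 on the knockout arrays, 11.67 in pool 1 and 11.15 in pool 2. The knockout values lay between the pools, and their mean differed from the pools by 0.02 ± 0.21 (SE; limma adjusted p = 0.984). Hoxb6, its neighbour, read 11.72 and 11.82 on the knockout arrays, 11.79 in pool 1 and 10.97 in pool 2 (0.39 ± 0.29, limma adjusted p = 0.797), so 3 of 4 samples were alike and pool 2 was low. Hoxb2 was likewise lowest in pool 2, at 9.01 and 9.07 against 9.10 and 8.56. Hoxb4 read 8.19 and 8.26 on the knockout arrays and 8.12 and 8.20 in the pools (0.06 ± 0.11, limma adjusted p = 0.886), the narrowest spread over the 4 samples in the cluster.

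Hoxb8, which acts in blood progenitors and in behaviour of mice, had a single high sample, with 6.92 and 6.81 on the knockout arrays, 6.91 in pool 1 and 8.12 in pool 2 (-0.66 ± 0.41, limma adjusted p = 0.797). Its second probe did not show this, reading 6.60 and 6.67 on the knockout arrays, 6.63 in pool 1 and 6.56 in pool 2, and was well above background in Cy5 on 3 arrays. Hoxd9 had 2 probes that both read lower in knockout, by -0.14 and -0.26, and the probes of Hoxc10 both read higher, at 0.13 and 0.24. With the tested probes, knockout stood -0.38 from pool 1 and 0.10 from pool 2 in Hoxd9, and 0.28 and -0.02 in Hoxc10. The ratio to pool 2 on knockout array 2 was 0.23 and -0.48, the opposite sign in each gene. The second probe of Hoxc10 was not well above background in Cy5 of pool 1. Hoxa6, Hoxa13, Hoxc6 and Hoxd4 differed by 0.05, 0.04, 0.09 and 0.02, all below their SE of 0.18, 0.16, 0.22 and 0.13, and each changed sign under at least 1 other scaling.

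**Figure D2:**
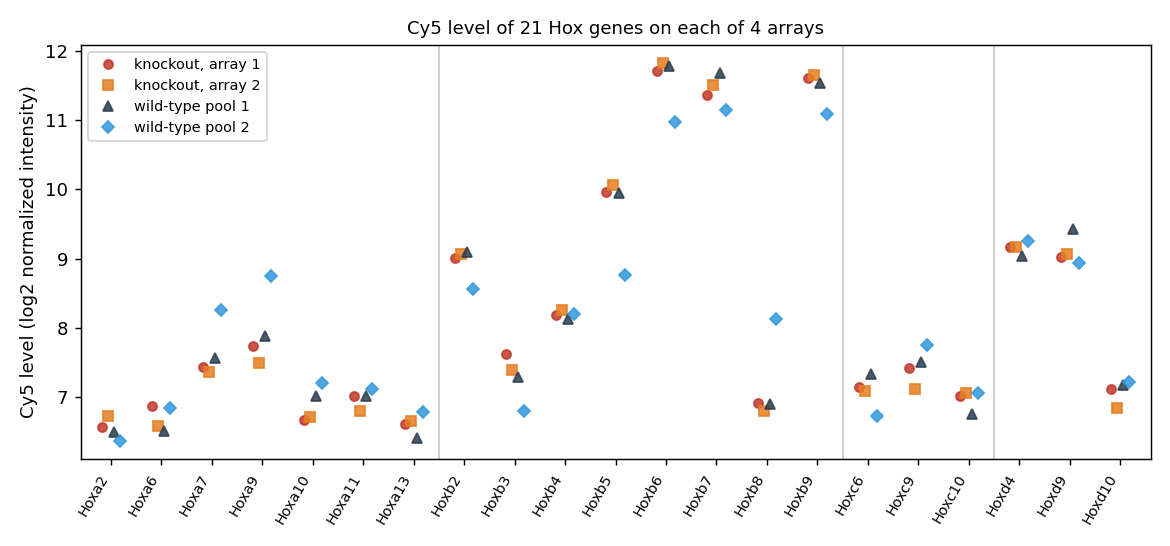
Cy5 level (log2 normalised intensity, y axis) of the 21 tested Hox genes in cluster order (x axis) on each of the 4 arrays, 1 point per array; heights of different genes rest on different probes and are not comparable. Pool 2 stands below the other samples in Hoxb5 (8.76) and Hoxb6 (10.97) and above them in Hoxa9 (8.75) and Hoxb8 (8.12), while the knockout arrays lie close to each other.

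The spread in these genes was larger between the pools than between the knockout arrays. Both knockout arrays carry the same source label, while the pools are named apart. Whether the knockout arrays hold separate RNA pools is not given, so the gaps may not compare like with like. The gap between the pools had a median of 0.45 log2 units over the 21 Hox genes, against 0.10 between the knockout arrays, and the knockout arrays were the closer pair in 16 of 21. Over all genes the medians were 0.22 and 0.09, and the knockout arrays were closer in 75.2%. Of the 21 Hox genes, 6 were over 1.5-fold apart between the pools in Cy5 (13.1% of all genes): Hoxa7, Hoxa9, Hoxb5, Hoxb6, Hoxb8 and Hoxc6.

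The pools were also compared in Cy3, where each was labelled anew: pool 1 on its self array, and pool 2 on its self array and on knockout array 2. The comparisons share pool RNA and the Cy3 channel of pool 1, and each pool is 1 sample, so they carry no test. In the Hoxb cluster 6 of 8 genes were lower in pool 2 in all 3 comparisons (40.9% of all genes): Hoxb2, Hoxb3, Hoxb5, Hoxb6, Hoxb7 and Hoxb9. Hoxb5 was lower by -1.19 in Cy5 and by -1.01 and -1.05 in Cy3, and Hoxb6 by -0.82, -0.73 and -0.70. These 2 genes were the ones over 1.5-fold lower in every comparison (2.3% of all genes). Hoxb7 was lower by -0.52, -0.49 and -0.44.

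Most tested Hoxa genes ran the other way. Of 7, 5 were higher in pool 2 in all 3 comparisons (31.8% of all genes) and 0 were lower in all 3. They were Hoxa6, Hoxa7, Hoxa9, Hoxa10 and Hoxa13. Hoxa6 and Hoxa13 were not well above background in pool 1 in either dye, and Hoxa10 differed by only 0.05 in Cy3 of the self arrays. The direction was not particular to Hoxa: 2 of 3 tested Hoxc genes and 2 of 3 Hoxd genes were also higher in pool 2 in all 3. Hoxa9 was higher by 0.86 in Cy5 and by 0.45 and 0.44 in Cy3, and Hoxa7 by 0.70, 0.29 and 0.33. Both differences were smaller in Cy3 than in Cy5. With its tested probe, Hoxb8 was higher in pool 2 by 1.21, 0.55 and 0.57, though that probe was not well above background in Cy3 of pool 1. Its second probe read 6.63 in pool 1 and 6.56 in pool 2 in Cy5. In all 3 comparisons, 0 Hox genes were over 1.5-fold higher (2.77% of all genes). The proximal tubule markers given above were likewise high in pool 2 and the principal cell markers low, and their part in the Hox differences was not tested.

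**Figure D3:**
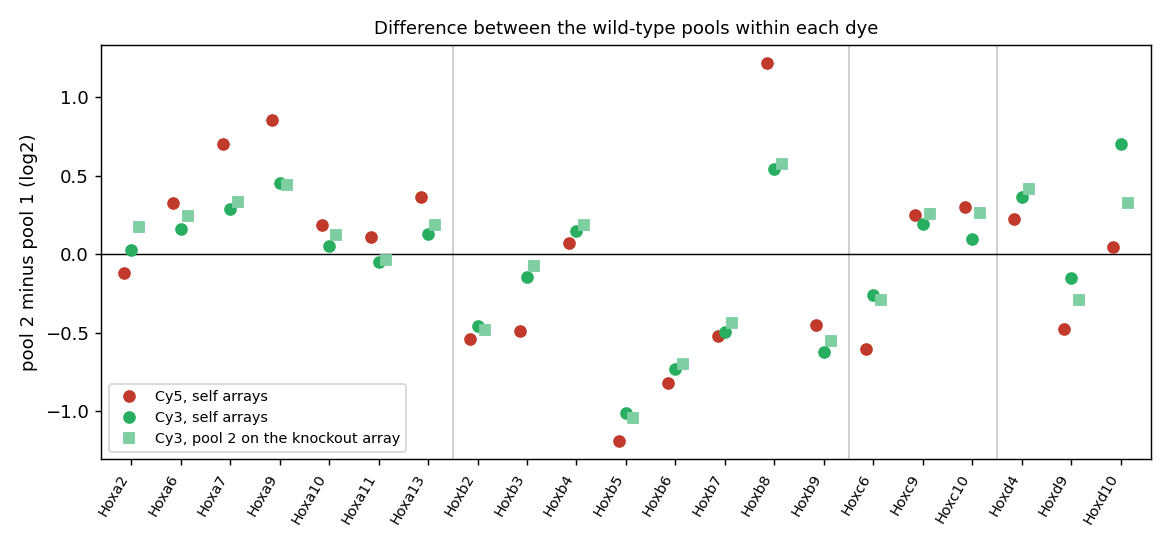
Pool 2 minus pool 1 (log2, y axis) for the 21 tested Hox genes in cluster order (x axis), from Cy5 and Cy3 of the self arrays and from Cy3 of pool 2 on knockout array 2; each point is 1 pair of channels. Hoxb2, Hoxb3, Hoxb5, Hoxb6, Hoxb7 and Hoxb9 lie below 0 in all 3, Hoxa7, Hoxa9 and Hoxb8 above 0 in all 3.

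Of the 11 Hox genes that were higher in pool 2 in all 3 comparisons, Hoxa7, Hoxa9 and Hoxb8 differed most in Cy5 by their tested probes. Their promoters are shown, as RefSeq windows of 250 bases before a transcript start (GRCm38.p6). The Hoxb8 window lies inside the span that RefSeq gives this gene, before an internal transcript start. They lie at chr6:52218574-52218823 on the minus strand, chr6:52227371-52227620 on the minus strand and chr11:96281655-96281904 on the plus strand. Capitals mark 4 motifs, searched on both strands. TATAAA is the TATA box. CCAAT is the box of that name. TTTATG is bound by Cdx proteins, which regulate Hox genes. The last motif, TGATNNAT, is a composite site of Hox and Pbx proteins.
Hoxa7: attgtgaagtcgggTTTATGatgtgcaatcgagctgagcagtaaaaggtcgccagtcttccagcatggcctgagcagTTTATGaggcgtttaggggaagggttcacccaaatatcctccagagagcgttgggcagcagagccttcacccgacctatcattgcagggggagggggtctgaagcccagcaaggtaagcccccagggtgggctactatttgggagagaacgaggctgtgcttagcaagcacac
Hoxa9: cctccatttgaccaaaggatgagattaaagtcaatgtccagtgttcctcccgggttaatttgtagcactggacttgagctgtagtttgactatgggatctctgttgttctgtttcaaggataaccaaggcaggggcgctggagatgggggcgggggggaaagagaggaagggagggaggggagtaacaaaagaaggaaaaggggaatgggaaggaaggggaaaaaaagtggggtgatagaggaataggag
Hoxb8: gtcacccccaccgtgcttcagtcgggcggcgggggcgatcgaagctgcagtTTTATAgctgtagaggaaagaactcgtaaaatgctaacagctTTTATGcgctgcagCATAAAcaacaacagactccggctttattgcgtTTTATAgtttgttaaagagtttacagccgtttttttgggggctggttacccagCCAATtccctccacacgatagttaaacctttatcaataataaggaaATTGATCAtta

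Hoxb8 held matches to all 4 motifs, Hoxa7 held TTTATG at 2 places and Hoxa9 held none. Over all 32851 windows of this length in the table, 12.4% held TATAAA, 33.8% CCAAT, 7.7% TGATNNAT and 10.8% TTTATG. The table had 24 windows for 22 Hox genes, and none for Hoxb2, Hoxb3, Hoxb5, Hoxb6, Hoxb7 and Hoxb9. Of the 24 windows, 4 held TATAAA, 14 CCAAT, 4 TGATNNAT and 5 TTTATG. The median Hox window held 12.5 CpG pairs against 6 over all windows. A match describes letters and is not evidence of binding.

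Set against each pool in turn, knockout lay further from pool 2 than from pool 1 in 15 of 21 Hox genes (67.9% of all genes) and further from pool 1 in 6: Hoxa6, Hoxa13, Hoxb4, Hoxc10, Hoxd4 and Hoxd9. The median distance was 0.19 log2 units from pool 1 and 0.39 from pool 2, and both comparisons use the same knockout arrays. Hoxb5 stood 0.06 above pool 1 and 1.25 above pool 2, Hoxb6 -0.02 and 0.80, and Hoxb3 0.21 and 0.70. Hoxa9 stood -0.27 from pool 1 and -1.13 from pool 2, Hoxa7 -0.16 and -0.86, and the tested probe of Hoxb8 -0.05 and -1.26. The sign against pool 1 was opposite to that against pool 2 in 9 of 21 genes, among them Hoxb2, Hoxb6, Hoxb7, Hoxc6 and Hoxd9. Without pool 1, 10 of the 21 Hox genes passed limma at an adjusted p under 0.05, with 6 higher in knockout (Hoxb2, Hoxb3, Hoxb5, Hoxb6, Hoxb9 and Hoxc6) and 4 lower (Hoxa7, Hoxa9, Hoxa10 and Hoxb8), where 25.6% of all genes did. Those p-values rest on pool 2 as a lone sample assumed to vary like the knockout arrays. Without pool 2, 0 Hox genes passed (0.0122% of all genes).

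On knockout array 2 the knockout and pool 2 shared each spot, which takes differences between arrays out of the ratio. Here Hoxb5 was 1.28 higher in knockout on the log2 scale and Hoxb6 0.76, and these were the 2 Hox genes over 1.5-fold higher (6.36% of all genes). Hoxa9 was lower by -1.22, Hoxa7 by -0.95 and Hoxb8 (tested probe) by -0.93, and these were the 3 over 1.5-fold lower (4.89% of all genes). With processed signals 4 Hox genes were over 1.5-fold higher and 10 lower, and with median centring 6 were higher and 2 lower. The shares over all genes were not counted in these settings, and median centring moved the median of all genes to 0.39. At the 2-fold mark, Hoxb5 was the 1 gene above it (1.46% of all genes) and Hoxa9 the 1 gene below it (2.06% of all genes). Hoxb7 stood at 0.28, Hoxb9 at 0.49 and Hoxa10 at -0.28. The same pool labelled with both dyes read 0.06 for Hoxb5, -0.05 for Hoxb6, 0.03 for Hoxa9, -0.01 for Hoxa7 and 0.19 for Hoxb8. Pool 1 labelled with both dyes read 0.06 for Hoxb5, 0.05 for Hoxb6, -0.19 for Hoxa9, -0.23 for Hoxa7 and 0.15 for Hoxb8, so the dye difference varied between the self arrays. The ratio is from 1 array and carries no test. It shares knockout RNA with the Cy5 comparison.

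**Figure D4:**
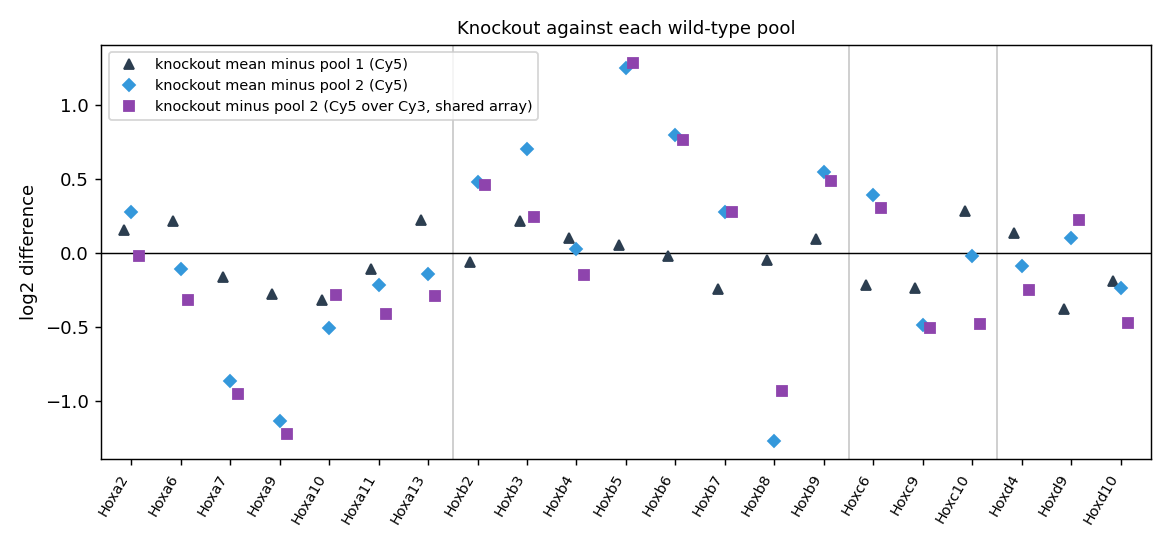
Log2 difference of knockout from wild type (y axis) for the 21 tested Hox genes in cluster order (x axis): the mean of 2 knockout arrays minus pool 1 or pool 2 in Cy5, and the Cy5 over Cy3 ratio of knockout to pool 2 on their shared array. The points against pool 1 lie between -0.38 and 0.28, and those against pool 2 reach 1.25 for Hoxb5 and -1.26 for Hoxb8.

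Partners and regulators of Hox proteins were read from 4 lists, and in each of them 0 members passed the test in either direction (0% of all genes each way). The Pbx, Meis and Pknox proteins bind DNA together with Hox proteins. Of 9 such genes 8 were tested, 7 had a positive difference, and the median was 0.06 against 0.02 over all genes. Meis3 (0.46 ± 0.13, SE) and Meis1 (0.24 ± 0.12) lay above both pools on both knockout arrays, each at a limma adjusted p of 0.797. Pbx4 stood at 0.08. On the shared array Meis3 and Meis1 read -0.14 and -0.44, the opposite sign.

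Polycomb and trithorax proteins keep Hox genes silent or active. Of 13 such genes 12 were tested, with 7 positive differences and a median of 0.04. Those with the smallest p were Phc2 (0.44 ± 0.17, SE), Bmi1 (-0.23 ± 0.12), Phc1 (-0.16 ± 0.11) and Rnf2 (0.18 ± 0.17), at limma adjusted p of 0.797 for the first 3 and 0.818 for the last.

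Retinoic acid is a classical inducer of Hox genes. Among 4 tested genes of its pathway, out of 10 listed inputs to Hox expression, 3 lay below both pools on both knockout arrays (17.7% of all genes) and the median was -0.43, against 0.02 over all genes. Aldh1a2, which makes retinoic acid, read 8.75 and 8.34 on the knockout arrays against 9.09 and 9.11 in the pools (-0.56 ± 0.17, SE, limma adjusted p = 0.797). Cyp26b1, which degrades it, read 8.42 and 7.63 against 9.12 and 8.74 (-0.90 ± 0.30, limma adjusted p = 0.797), and the receptor gene Rarb differed by -0.30 ± 0.13 and Rarg by 0.13 ± 0.13 (limma adjusted p = 0.797 and 0.830). The pools were 0.02 apart in Aldh1a2, and in Cyp26b1 pool 2 stood at -0.38 from pool 1. Cdx1, Cdx2, Cdx4, Rara and Cyp26a1 were not tested because their probes missed the detection filter, and Gdf11 had no matched probe.

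Genes of early kidney development tied to Hox10 or Hox11 function numbered 5 tested of 8, with a median of -0.05. Ret, the receptor of the branching signal GDNF, read 6.74 and 6.65 on the knockout arrays against 7.02 and 6.96 in the pools (-0.30 ± 0.11, SE, limma adjusted p = 0.797). Wnt11, a bud tip ligand, differed by -0.47 ± 0.32 (limma adjusted p = 0.797) with the pool 1 value dropped for a dark patch on that array, and Pax2 and Eya1 stood at 0.12 and -0.05. On the shared array, against pool 2, Ret read -0.04, Wnt11 -0.90, Pax2 0.11 and Eya1 0.16. Six2 and Gdnf, mesenchymal genes, missed the detection filter, while Eya1 passed it. Markers of other cells were read too, and each list was detected in part. Counts well above background in Cy5 follow for knockout arrays 1 and 2, pool 1 and pool 2, in that order. They were 5, 5, 6 and 4 of 7 stroma markers and 5, 4, 5 and 3 of 6 nephron progenitor markers. Of 5 endothelial markers they were 3, 2, 3 and 3. Six2, Tbx18 and Tek were the members of these lists not well above background in Cy5 on any array. Stroma markers summed to 849 to 925 on the knockout arrays and 662 to 1028 in the pools, nephron progenitor markers to 597 to 675 and 713 to 747, and endothelial markers to 264 to 295 and 294 to 368 (linear Cy5 levels).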

How the data were processed

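RNA of sorted duct cells was measured on 4 two-colour arrays of 1 slide and 1 scan. Agilent Feature Extraction 10.7.3.1 read the slide, per the file headers. Each deposited file holds, spot by spot, intensity as a pixel median with a local background, a background-subtracted and a processed intensity, a log10 ratio of Cy5 over Cy3, and other values, which are 0 or 1 flags set by the software, as the file headers name them. The submitters' deposited value table matched these log10 ratios for 45018 of 45018 spots of every array (within 1e-06), with medians of 0.173 on knockout array 1 and 0 on the others, which fixes its scale and direction.

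Cy5 of all 4 arrays was corrected with normexp (offset 50, which shrinks differences of dim probes), quantile normalised and tested with limma 3.58.1 in R 4.3.3, two-sided, Benjamini-Hochberg over 16594 genes, threshold 0.05. A probe entered when both Cy5 channels of at least 1 genotype were well above background and at most 1 array lacked a value. Spots with outlier flags were dropped, as were 490 spots in a dark patch of the pool 1 self array, which held 0 Hox spots. No Hox spot was flagged or saturated. The brightest probe stood for a gene. Names came from RefSeq accessions (22951 of 41174 probes). Shared-array ratios were loess normalised (control spots at weight 0). Cy3 was quantile normalised over its 3 channels with signal. Promoter windows came from RefSeq.

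The 21 Hox genes that entered are named with their values, the others by detection, and up to 4 genes of each partner list by smallest p. A few genes are not reported here. Members and lists were chosen with earlier results of these data known. The labels do not tie replicate arrays to separate animals, so the p-values reflect array-to-array spread alone, possibly technical. The scripts were tested on simulated data.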

Additional observations from a re-analysis of the deposited data

How the results depend on the processing

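With 2 arrays per group, calls rest on single samples. Leaving out 1 array at a time gave 0 to 2538 genes higher and 0 to 1703 lower in limma, 0 to 10 Hox genes called, and 5 to 9 and 6 to 10 Hox genes with knockout above and below wild type. The extreme counts of calls came without WT_self replicate 1, and without WT_self replicate 2 there were 2 genes higher. Both knockout arrays lay above both pools in 7 Hox genes with processed Cy5 signals and in 7 with 75th percentile scaling (6 and 8 below), against 4 and 6. Shares over all genes were not counted in these 2 settings, nor for the counts above and below wild type with 1 array left out. Leaving out 1 array means that fewer arrays have to agree. Those counts of 5 to 9 and 6 to 10 are therefore not comparable with 4 and 6. Apart from leaving out a self array, every setting of the Cy5 comparison gave 0 genes called, and the fit with a replicate block gave 0 Hox genes called. The deviations of same-numbered arrays correlated at 0.0416, so the numbers do not pair the samples. On the shared array, 4 Hox genes were over 1.5-fold above and 10 below pool 2 with processed signals. With median centring 6 were above, and the median of all genes moved to 0.39. Shares over all genes were not counted for either. The causes were not tested.

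Some Hox directions turned. With processed Cy5 signals Hoxd9 stood at 0.050 and Hoxd4 at -0.18. With 75th percentile scaling Hoxd9 stood at 0.059, Hoxa2 at -0.20, Hoxa6 at -0.14, Hoxa13 at -0.23 and Hoxc6 at -0.15. As log ratios of the KO_vs_WT minus the WT_self arrays, Hoxd9 stood at 0.0015, Hoxd4 at -0.17, Hoxa2 at -0.088, Hoxa6 at -0.19, Hoxa13 at -0.12, Hoxb4 at -0.017 and Hoxc10 at -0.19. With the deposited log ratios Hoxd9 stood at 1.25, Hoxa2 at -0.81, Hoxa6 at -0.39, Hoxa7 at 0.26, Hoxa11 at 0.31, Hoxa13 at -0.26 and Hoxc9 at 0.17. Both kinds of log ratio include knockout array 1, whose Cy3 held almost no signal. The ratio of that array does not set knockout against wild type, which limits what these turns show. Leaving out single arrays gave -0.11 to 0.22 for Hoxa6, -0.24 to 0.28 for Hoxb7, -0.38 to 0.10 for Hoxd9, -0.087 to 0.14 for Hoxd4, -0.14 to 0.22 for Hoxa13, -0.020 to 0.28 for Hoxc10, -0.021 to 0.80 for Hoxb6, -0.059 to 0.48 for Hoxb2 and -0.22 to 0.39 for Hoxc6. Over all settings, 19 to 29 Hox genes were detected in knockout and 16 to 24 in wild type. Naming probes by the file's own gene names was not run, since the files used give accessions in their place.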
